A study of Mus musculus with 2 samples.

Results

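Genes of fatty acid uptake and fat storage were followed through the cells of the fatty mouse liver: Cd36, Olr1, Lpl, Fabp4, Fabp5, Pparg, Plin2, Dgat1 and Pnpla2. They were taken by symbol from the gene list of the deposited count tables, where each of the 9 symbols named 1 row of 32285. The 2 marrow groups were compared, each sequenced as a single 10x library of living (7AAD-) CD45+ liver cells, pooled in equal parts from 4 mice. All recipients were male C57Bl6/J mice, lethally irradiated and rebuilt with marrow of Trem2-/- mice or of their Trem2+/+ littermates. After 6 weeks of recovery they were fed for 4 weeks on a methionine/choline-deficient (MCD) diet, which brings on steatohepatitis. Irradiation and diet were common to both groups, and no group on normal diet is described here. Host cells that outlive irradiation, such as endothelial cells and any remaining Kupffer cells, keep the recipient's genes in both groups. The donor's share of each cell type was not given.

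Fat reaches a cell by several routes. Lipoprotein lipase (Lpl) cuts fatty acids from circulating triglyceride, the membrane receptor Cd36 takes up fatty acids and oxidised lipoproteins, and the lectin-like receptor Olr1 binds oxidised low-density lipoprotein. Inside the cell, Fabp4 and Fabp5 carry fatty acids through the cytosol, and Pparg is a nuclear receptor that is switched on by fatty acids and drives genes of this kind with its partner Rxra. Dgat1 makes the last step of triglyceride synthesis, Plin2 coats the lipid droplet in which triglyceride is kept, and Pnpla2 (adipose triglyceride lipase) starts its breakdown. In liver, macrophages that load lipid are known for Cd36, Fabp5 and Lpl, while sinusoidal and other endothelial cells are known for Cd36 and Fabp4.

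The sequences in front of 4 of the genes are given because Cd36 and Olr1 had lower levels in macrophage-like cells of the Trem2-/- library, Plin2 a smaller difference and Pnpla2 none past its counting error. Each window runs from 250 bases before to 50 bases after an annotated RefSeq start site on GRCm38.p6. Capitals mark AGGTCA, the half-site of nuclear receptors such as PPARG with RXRA, and the other motifs searched, which were TGANTCA of AP-1 factors and the E-box CACGTG. Each motif was looked for on both strands, so AGGTCA on the other strand is printed as TGACCT. The other motifs read alike on both strands, and no marked matches overlap.
Cd36 promoter, chr5:17835847-17836146, reverse strand: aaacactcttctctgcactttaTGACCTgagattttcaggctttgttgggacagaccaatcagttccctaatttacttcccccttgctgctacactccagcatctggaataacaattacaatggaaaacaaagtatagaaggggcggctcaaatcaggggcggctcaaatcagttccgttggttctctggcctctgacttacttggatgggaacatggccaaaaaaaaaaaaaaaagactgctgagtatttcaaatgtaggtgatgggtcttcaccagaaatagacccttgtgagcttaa
Olr1 promoter, chr6:129507116-129507415, reverse strand: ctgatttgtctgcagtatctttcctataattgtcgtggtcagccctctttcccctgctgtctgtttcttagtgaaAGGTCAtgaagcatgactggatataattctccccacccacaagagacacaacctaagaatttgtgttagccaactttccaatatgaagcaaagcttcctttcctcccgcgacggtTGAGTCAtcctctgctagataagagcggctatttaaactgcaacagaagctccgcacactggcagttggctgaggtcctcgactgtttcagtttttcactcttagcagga
Plin2 promoter, chr4:86670010-86670309, reverse strand: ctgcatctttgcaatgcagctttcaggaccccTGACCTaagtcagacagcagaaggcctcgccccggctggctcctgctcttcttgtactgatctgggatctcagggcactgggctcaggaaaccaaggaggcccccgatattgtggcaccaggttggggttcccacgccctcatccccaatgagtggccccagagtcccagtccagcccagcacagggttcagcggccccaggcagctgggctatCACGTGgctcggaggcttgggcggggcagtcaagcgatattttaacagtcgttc
Pnpla2 promoter, chr7:141454938-141455237, forward strand: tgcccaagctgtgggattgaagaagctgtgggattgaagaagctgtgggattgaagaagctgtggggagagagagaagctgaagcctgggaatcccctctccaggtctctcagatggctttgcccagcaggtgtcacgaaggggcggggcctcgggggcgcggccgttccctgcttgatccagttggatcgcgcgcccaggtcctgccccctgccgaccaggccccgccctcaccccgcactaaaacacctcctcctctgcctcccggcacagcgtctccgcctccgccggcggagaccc
Of the 9 genes, 5 had such a window in the table used here (these 4 and Pparg, which had 3 windows). Fabp4, Fabp5 and Lpl, which were also lower in macrophage-like cells, had no window, nor had Dgat1. Pparg is not printed, and the interval of its ratio in those cells includes 0. A link between motifs and ratios was not tested. AGGTCA stood in a window of Cd36, Olr1, Plin2 and Pparg, 4 of the 5 genes or 5 of their 7 windows, and in 16.3% of 32851 windows of the same length over all genes. It began at -228 from the start site in Cd36, -175 in Olr1 and -218 in Plin2. TGANTCA was found in Olr1 at -60 and in 7.81% of all windows. CACGTG stood in Plin2 at -4 and in 7.15% of all windows. The response element of PPARG with RXRA, a pair of these half-sites on one strand with 1 base between them, was in none of the windows of these genes and in 0.0396% of all windows. A match is a run of letters and not a measured site.

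Fabp4 and Fabp5 lie on the same chromosome and code for closely related carriers, so it matters that their reads can be told apart. Their first 120 coding bases (GENCODE M21, mm10) are given below, with capitals where the 2 genes carry the same base in an alignment of the whole coding sequences.
Fabp4: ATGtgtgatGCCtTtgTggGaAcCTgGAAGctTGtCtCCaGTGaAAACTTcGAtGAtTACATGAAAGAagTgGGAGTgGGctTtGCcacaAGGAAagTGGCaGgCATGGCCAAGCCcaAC
Fabp5: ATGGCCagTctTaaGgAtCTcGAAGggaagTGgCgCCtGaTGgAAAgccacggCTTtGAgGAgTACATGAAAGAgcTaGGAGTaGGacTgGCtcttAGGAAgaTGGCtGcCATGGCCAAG
The coding sequences have 396 and 405 bases, and 254 of 384 aligned bases (66.1%) were identical. The transcripts of Fabp4 and Fabp5 shared 0 runs of 31 bases. Fabp5 shared 9.21% of its 31-base runs with other genes, most of them with the predicted gene Gm6166, and Plin2 shared 5.05%, most with Gm12551. Lpl shared 3.24%, spread over 391 genes. The counts of these 3 genes may be less certain than the others, but the effect of shared runs on the counts was not measured. In mm10, Fabp4 (ENSMUSG00000062515) spans chromosome 3, 10204088 to 10208576, reverse strand, and Fabp5 (ENSMUSG00000027533) chromosome 3, 10012548 to 10016607, forward strand. The receptor gene Cd36 (ENSMUSG00000002944) lies on chromosome 5, 17781690 to 17888801, reverse strand, and Lpl (ENSMUSG00000015568) on chromosome 8, 68880491 to 68907448, forward strand. Olr1 (ENSMUSG00000030162) lies on chromosome 6, 129485244 to 129507165, reverse strand, and Pparg (ENSMUSG00000000440) on chromosome 6, 115360951 to 115490399, forward strand. The droplet genes are Plin2 (ENSMUSG00000028494; chromosome 4, 86648386 to 86670060, reverse strand), Dgat1 (ENSMUSG00000022555; chromosome 15, 76502015 to 76511953, reverse strand) and Pnpla2 (ENSMUSG00000025509; chromosome 7, 141455198 to 141460743, forward strand).

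The libraries held 25288032 transcript counts (UMIs, each a captured molecule counted once) in 6362 barcodes for Trem2-/- marrow and 27238586 UMIs in 7012 barcodes for Trem2+/+ marrow. Of these barcodes, 5974 and 6596 passed the filters, with a median depth of 2931.5 and 2492 UMIs, and formed 29 clusters, of which 5 got no cell type name. A barcode sequence was shared by both libraries 56 times, 53 of them among kept cells. In each library, UMIs of a gene were added up within each cell class and scaled so that 1 CPM is 1 UMI in 1000000 UMIs of that class. Ratios are the Trem2-/- over the Trem2+/+ library on a log2 scale, and where values stand in pairs the Trem2-/- library comes first. A gene counted as measured in a class where its mean over the libraries was at least 20 CPM. Intervals, in parentheses or after a ratio, are exact 95% intervals and cover counting error only. With 1 library per group no difference has a replicate check, the mice of a pool cannot be told apart, and no test between the groups was made. Trem2 itself, the gene removed, stood at 42.8 CPM with Trem2-/- marrow and 677 CPM with Trem2+/+ marrow in macrophage-like cells, and at 47.4 and 393 CPM in Kupffer-like cells, both in the direction of the labels. The labels do not say which exons the knockout lacks, so these levels check the direction only. Cells were sorted on CD45, yet a class with all 10 endothelial markers held 16.2% and 10.4% of kept cells. The CD45 gene Ptprc stood there at 59.2 and 88.8 CPM, against at least 385 CPM in every other class compared.

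The 9 genes were divided among cell classes in different ways. Cd36, the fatty acid receptor, was high in endothelial-like cells (714 and 730.0 CPM in the Trem2-/- and Trem2+/+ libraries), macrophage-like cells (272 and 619 CPM) and Kupffer-like cells, which resemble the resident liver macrophages (381 and 288 CPM). Type 1 dendritic (cDC1-like) cells followed with 152 and 133 CPM, and Ly6C-high monocyte-like cells with 67.6 and 87.6 CPM. In the 5 other classes compared (type 2 dendritic, neutrophil, B, T and NK/ILC1-like) Cd36 stayed under 20 CPM in both libraries. The order of the first 3 classes differed between the libraries, and no neighbours among the 5 named classes overlapped within a library. Macrophage-like cells stood above Kupffer-like cells in the Trem2+/+ library and below them in the Trem2-/- library.

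Lpl, the secreted lipase, was a gene of the mononuclear phagocytes. Kupffer-like cells had 912 and 778 CPM, macrophage-like cells 698 and 1254 CPM and monocyte-like cells 391 and 439 CPM, against 29.0 and 31.4 CPM in endothelial-like cells. Endothelial-like cells instead had 2069 and 2230.0 CPM of Gpihbp1, the protein that holds the lipase on the capillary wall. Olr1 had another pattern. It stood at 72.6 and 92.3 CPM in neutrophil-like cells and 60.8 and 61.1 CPM in monocyte-like cells, with macrophage-like cells at 16.0 and 33.5 CPM. Neutrophil-like and monocyte-like levels overlapped in the Trem2-/- library and not in the Trem2+/+ library. In Kupffer-like cells it was seen as 1 UMI in the Trem2-/- library and 0 in the Trem2+/+ library, where 0 UMIs allow up to 5.27 CPM. Pparg was low in every class, with 37.1 and 40.2 CPM in macrophage-like, 19.4 and 26.8 CPM in monocyte-like and 20.3 and 14.0 CPM in Kupffer-like cells. Of these 3 classes, only macrophage-like and monocyte-like cells of the Trem2+/+ library were neighbours without overlap.

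The cytosolic carriers differed from each other. Among the 10 classes compared, Fabp4 was highest in endothelial-like cells, at 1389 and 1371 CPM, with macrophage-like cells next at 54.7 and 219 CPM and monocyte-like cells at 24.7 and 31.01 CPM. Fabp5 was at 812 and 1772 CPM in macrophage-like cells, 281 and 349 CPM in endothelial-like cells and 203 and 263 CPM in monocyte-like cells. Mature dendritic-like cells, too few to be compared by ratio (90 and 96 cells), had 1204 and 1613 CPM. In Kupffer-like cells Fabp5 stood at only 20.3 and 24.6 CPM and Fabp4 at 17.6 and 17.6 CPM, where the intervals overlapped those of monocyte-like cells for Fabp4 and of T cell-like cells for Fabp5. The lymphoid levels, over T, B and NK/ILC1-like cells together, were 19.0 and 17.3 CPM for Fabp5 and 7.57 and 5.37 CPM for Fabp4. Cd36, Lpl and Plin2 were thus at 210.0 CPM or more in both Kupffer-like and macrophage-like cells, while both carriers were lower in Kupffer-like cells.

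Among the storage genes, the droplet coat gene Plin2 followed the phagocytes, with 352 and 452 CPM in macrophage-like, 227 and 211 CPM in monocyte-like and 210.0 and 216 CPM in Kupffer-like cells. Intervals for the monocyte-like and Kupffer-like classes overlapped in both libraries. cDC1-like cells had 149 and 139 CPM. The enzymes that make and break triglyceride had different leaders. Dgat1 was high in neutrophil-like cells (168 and 109.7 CPM) and NK/ILC1-like cells (98.97 and 96.1 CPM) and stayed under 20 CPM in all 3 mononuclear phagocyte classes. The lipase Pnpla2 was found in all 10 classes, with overlap between every pair of neighbours below neutrophil-like cells. Its levels ran from 43.1 CPM in endothelial-like cells to 143 CPM in neutrophil-like cells of the Trem2+/+ library, and from 43.9 to 174 CPM in the same classes of the Trem2-/- library.

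**Figure D1:**
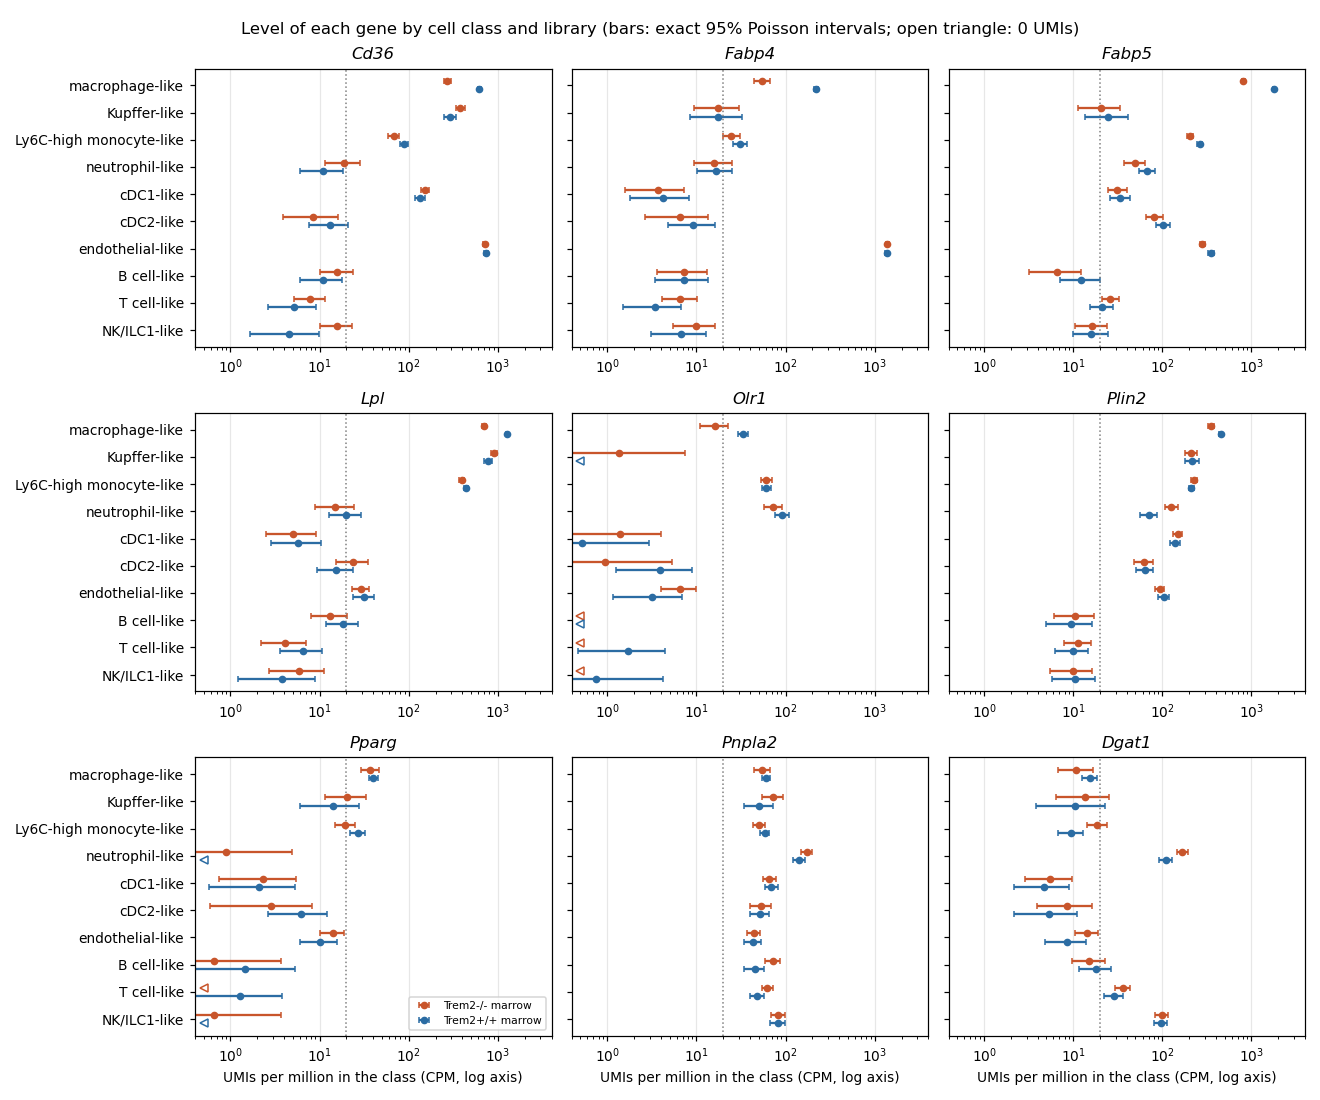
Level of each gene (horizontal log axis, CPM) in the 10 cell classes compared, each of 100 cells or more in both libraries. Points are the single library per group, bars exact 95% Poisson intervals, open triangles classes with 0 UMIs, and the dotted line 20 CPM. The 2 libraries separate in several rows. Among them are the macrophage-like row of Cd36, Fabp4, Fabp5, Lpl, Olr1 and Plin2 and the neutrophil-like row of Plin2 and Dgat1. Endothelial-like Cd36 and Fabp4 lie on top of each other.

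The first comparison asks how the lipid genes differed in macrophage-like cells when their marrow lacked TREM2, a lipid-sensing receptor of macrophages. Uptake and carrier genes were lower and storage genes were not past 1.5-fold. Cd36 stood at 272 CPM (249–296) with Trem2-/- marrow against 619 CPM (600.5–639) with Trem2+/+ marrow, a log2 ratio of -1.19 (-1.32 to -1.06). Fabp4, the adipocyte-type carrier, stood at 54.7 CPM (44.8–66.1) with Trem2-/- marrow against 219 CPM (207–230.2) with Trem2+/+ marrow, a log2 ratio of -2.00 (-2.30 to -1.71). The epidermal-type carrier Fabp5 stood at 812 CPM (773–854) with Trem2-/- marrow against 1772 CPM (1739.9–1805) with Trem2+/+ marrow, a log2 ratio of -1.12 (-1.20 to -1.05). For each of these 3 genes the Trem2-/- library was the lower one and the intervals were far apart. With every cell thinned to 1000 UMIs the log2 ratio of Fabp4 was -1.01, outside the interval given. Lpl was at 698 CPM (662–737) with Trem2-/- marrow against 1254 CPM (1226–1281) with Trem2+/+ marrow, a log2 ratio of -0.84 (-0.93 to -0.76). Olr1 was at 16.0 CPM (10.9–22.7) with Trem2-/- marrow against 33.5 CPM (29.2–38.2) with Trem2+/+ marrow, a log2 ratio of -1.07 (-1.66 to -0.52) resting on 31 and 218 UMIs. For Lpl and Olr1 too the Trem2-/- library was the lower one, without overlap. The Olr1 call depended on where the class was drawn: with all deposited barcodes clustered again its log2 ratio was 0.29, and at a coarser clustering 0.22.

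The storage side of the same cells differed less. Plin2 was at 352 CPM (326–379) with Trem2-/- marrow against 452 CPM (436–468) with Trem2+/+ marrow, a log2 ratio of -0.36 (-0.48 to -0.24), whose interval excludes 0 and stays inside 1.5-fold. Pnpla2 was at 54.7 and 60.4 CPM (log2 ratio -0.14, -0.47 to 0.17), and Pparg, the regulator, stood at 37.1 and 40.2 CPM (log2 ratio -0.12, -0.51 to 0.27), with intervals that include 0. Dgat1 was under the 20 CPM needed to be counted, at 10.8 and 15.4 CPM. So 5 of the 8 genes measured were at least 1.5-fold lower and 0 were higher; over all 5509 genes measured in the class, 1.89% were lower and 2.49% higher by the same rule. The median log2 ratio was -0.95 for the 8 genes and 0.00 for all genes. Since the genes were chosen with results of these libraries known, the count describes them and is no independent evidence.

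Few other lipid genes differed. Of 117 other lipid genes in 9 lists, 57 were measured in macrophage-like cells, 1 was at least 1.5-fold lower, 1 was higher, and their median log2 ratio was -0.05. The lower one was Slc27a1, a fatty acid transport protein, at 18.1 and 33.0 CPM (log2 ratio -0.87, -1.43 to -0.35). The higher one was G0s2, an inhibitor of the lipase encoded by Pnpla2, at 54.2 and 14.0 CPM (log2 ratio 1.96, 1.54 to 2.38). G0s2 is also a leading gene of neutrophil-like cells (7615 and 5333 CPM), and the 8 neutrophil markers summed to 266 and 306 CPM in macrophage-like cells, with none at 0. Whether neutrophil RNA has a part in the G0s2 ratio was not tested. None of 13 measured genes of fatty acid oxidation (median -0.10), 9 of the PPAR and RXR regulators (median -0.01), 6 other scavenger receptors (median 0.20), 6 other droplet genes (median -0.02) or 5 other genes of triglyceride synthesis (median -0.07) passed 1.5-fold. The retinoid receptor gene Rxra was at 50.04 and 59.1 CPM (log2 ratio -0.24, -0.58 to 0.08), the droplet coat gene Plin3 at 51.1 and 45.9 CPM (log2 ratio 0.15, -0.19 to 0.49), and Hilpda, for another droplet protein, at 106 and 104 CPM (log2 ratio 0.02, -0.21 to 0.25).

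The macrophage-like class was made of 3 clusters, which were formed without the lipid genes and without Trem2. Cluster 5 (163 and 497 cells) was led by Ms4a7 and C1q genes, of complement-producing macrophages. Cluster 17 (37 and 246 cells) was led by Mmp12 and Gpnmb, genes known from lipid-laden macrophages. Cluster 11 (86 and 396 cells) held cells with few UMIs, a median of 692. Its leading genes included C1qa, C1qb, Mmp13 and the platelet chemokine genes Pf4 and Ppbp. Pf4 was also a leading gene of cluster 5, and 2 and 5 of the 8 platelet markers were at 0 in cluster 11. In cluster 17, Cd36 was 546 and 1172 CPM, a log2 ratio of -1.10 (-1.32 to -0.89), and Lpl was 836 and 1856 CPM, a ratio of -1.15 (-1.33 to -0.98). Fabp4 there was 161 and 491 CPM (log2 ratio -1.61, -2.03 to -1.22), Fabp5 2235 and 3562 CPM (log2 ratio -0.67, -0.78 to -0.57) and Olr1 32.1 and 77.8 CPM (log2 ratio -1.27, -2.31 to -0.40). Plin2, at 672 and 679.5 CPM, had a ratio of -0.02 (-0.22 to 0.19) in the same cells. These 5 of 8 genes past 1.5-fold compare with 9.83% of all genes measured in cluster 17 that were lower, and 10.3% were higher, a wider background than in the whole class; the Trem2-/- library gave 37 cells there. In these cells the 8 Ly6C-high monocyte markers summed to 1542 CPM, with 1 at 0, against 715 CPM with none at 0, and their part in the ratios was not tested.

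Cluster 5 had lower levels of Cd36, Fabp4, Fabp5, Lpl and Plin2 than cluster 17 in both libraries. Cd36 in cluster 5 was 219 and 371 CPM (log2 ratio -0.76, -0.94 to -0.59), Fabp4 30.02 and 86.5 CPM (log2 ratio -1.53, -2.01 to -1.08) and Fabp5 527 and 957 CPM (log2 ratio -0.86, -0.97 to -0.75). These 3 of 7 genes were at least 1.5-fold lower and 0 higher, against 1.53% lower and 2.66% higher of all genes measured in the cluster. Lpl was 684 and 995 CPM (log2 ratio -0.54, -0.64 to -0.44), just inside 1.5-fold, and Plin2 289 and 359 CPM (log2 ratio -0.31, -0.47 to -0.16). In cluster 11, Cd36, Fabp4, Fabp5 and Lpl had ratios of -1.13, -1.29, -1.78 and -0.70, but 30.3% of all genes measured were at least 1.5-fold lower there and 17.6% higher, so little can be read from its 4 of 6 calls. Without cluster 11, an alternative chosen after seeing the data, the class again had 5 genes at least 1.5-fold lower. Cluster 17, which had the most Fabp4 of the 3 clusters, held 37 of 286 and 246 of 1139 cells of the class. The Fabp4 ratio of the whole class was larger in size than that of any of its clusters. The part of this cluster mix in the class ratios was not tested.

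**Figure D2:**
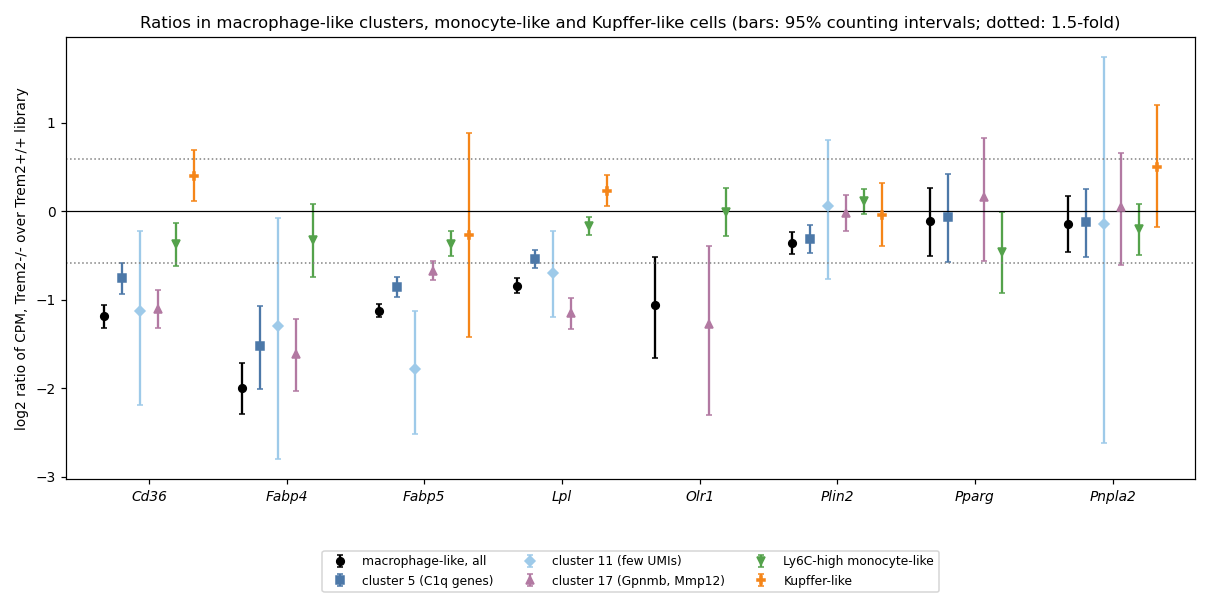
Log2 ratio of the Trem2-/- over the Trem2+/+ library (vertical axis) for each gene with a mean of at least 20 CPM, in macrophage-like cells, their 3 clusters, monocyte-like and Kupffer-like cells. Bars are exact 95% counting intervals, and dotted lines mark 1.5-fold. Cd36, Fabp4, Fabp5 and Lpl lie below 0 in every macrophage-like cluster, Plin2, Pparg and Pnpla2 lie inside 1.5-fold in every unit drawn, and the Kupffer-like values of Cd36, Lpl and Pnpla2 lie above 0.

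Macrophage-like cells of the Trem2-/- library were deeper (median 5771.5 UMIs) than those of the Trem2+/+ library (4396), so shares of positive cells were set at equal depth by thinning each cell to 1000 UMIs. This left 229 of 286 and 841 of 1139 cells. At least 1 UMI of Cd36 was then found in 19.7% and 30.1% of them, against 38.8% and 46.8% before thinning. For Fabp5 the thinned shares were 32.3% and 46.1% (unthinned 44.4% and 54.7%), and for Lpl 32.3% and 48.3% (unthinned 55.2% and 61.4%). Plin2 was found in 22.3% and 29.5% (unthinned 58.4% and 55.5%), and Fabp4 in 4.80% and 9.75% (unthinned 11.2% and 22.7%). Thinned T, B and NK/ILC1-like cells, at medians of 2824.5 and 2341 UMIs before thinning, had Cd36 in 1.21% and 0.870%, Fabp5 in 1.44% and 1.24%, Lpl in 0.552% and 1.12% and Fabp4 in 0.607% and 0.435%. These lymphoid shares are taken as the background from free RNA. In cluster 17 the share with Fabp5 was alike, 70.3% and 70.8%, but a positive cell held 2.65 UMIs on average in the Trem2-/- library and 4.14 in the Trem2+/+ library.

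Uptake, carrier and droplet genes were also looked at cell by cell. A lower share of cells with each gene by itself lowers the share with several, and a difference beyond that was not tested. Of Cd36, Fabp5, Lpl and Plin2, at least 3 were seen together in 10.0% (6.47 to 14.7) of thinned macrophage-like cells with Trem2-/- marrow, 23 of 229, against 22.4% (19.6 to 25.3) with Trem2+/+ marrow, 188 of 841; these intervals did not overlap. In cluster 17 the shares were 18.9% (7.96 to 35.2), 7 of 37 cells, and 45.7% (39.3 to 52.2), 111 of 243 cells. In cluster 5 they were 8.59% (4.78 to 14.0) and 14.2% (11.2 to 17.6), with overlapping intervals. Kupffer-like cells, with 3.85% (1.42 to 8.18) and 2.17% (0.451 to 6.22), and monocyte-like cells, with 1.72% (0.747 to 3.37) and 2.02% (1.08 to 3.43), rarely held 3 of the 4. No such cell was seen among 1811 and 1610 lymphoid cells, which allows a share of up to 0.166% and 0.186% by the limit of 3 cells, or 0.203% and 0.229% by the exact upper bound.

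**Figure D3:**
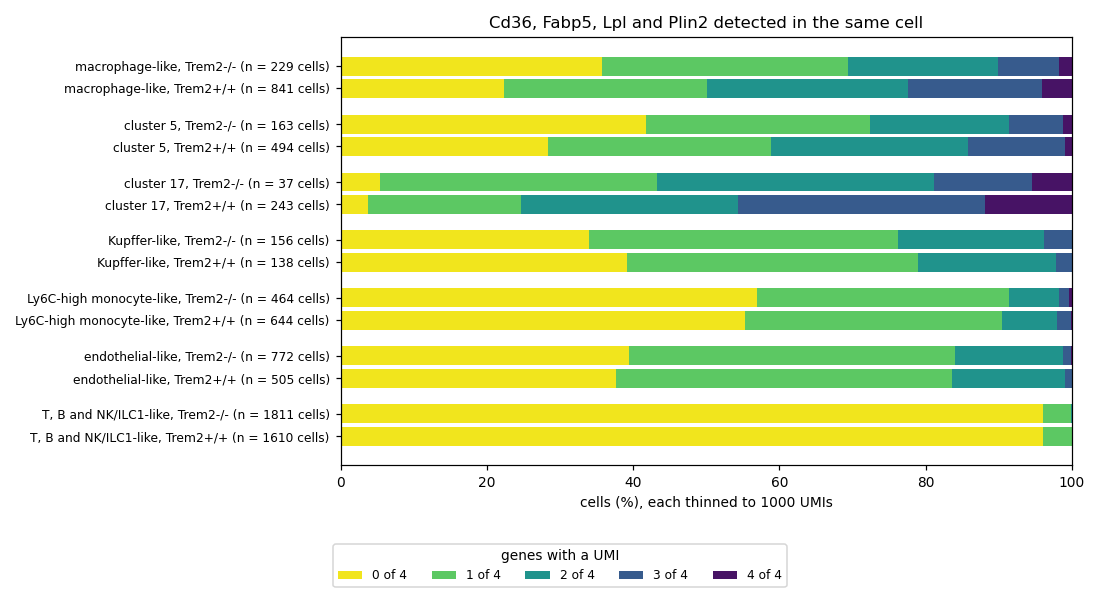
Share of cells (horizontal axis, %) in which 0, 1, 2, 3 or all 4 of Cd36, Fabp5, Lpl and Plin2 had at least 1 UMI, after thinning each cell to 1000 UMIs. Rows are cell classes or clusters, each with the Trem2-/- library above the Trem2+/+ library. The dark segments for 3 or 4 genes are widest in cluster 17 of the Trem2+/+ library, and none are seen in T, B and NK/ILC1-like cells.

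Fabp4 and Cd36 are abundant in endothelial cells, so the endothelial signal in macrophage-like cells was measured beside them. The 10 endothelial markers summed to 111 and 119 CPM in macrophage-like cells, with none at 0 in either library. In endothelial-like cells there were 0.0931 (0.0903 to 0.0960) and 0.100 (0.0961 to 0.104) Fabp4 UMIs for each UMI of those markers. T, B and NK/ILC1-like cells had 0.0723 (0.0526 to 0.0973) and 0.112 (0.0723 to 0.167), close to the endothelial ratio. Macrophage-like cells had 0.493 (0.387 to 0.625) in the Trem2-/- library and 1.84 (1.68 to 2.01) in the Trem2+/+ library, and cluster 17 had 6.11 (2.996 to 14.1) and 8.26 (6.84 to 10.0). Macrophage-like cells without any UMI of the markers, 166 of 286 and 792 of 1139, carried Fabp4 at 74.6 and 248 CPM and Cd36 at 293 and 684 CPM. These cells were chosen for having no marker UMI, and the part of endothelial RNA in the whole class was not tested. Kupffer-like cells had 0.0299 (0.0158 to 0.0516) and 0.0375 (0.0178 to 0.0700) Fabp4 UMIs per marker UMI, under the endothelial ratio.

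In Kupffer-like cells none of the genes passed 1.5-fold, and Cd36 and Lpl lay slightly above 0, but both depended on how the class was drawn. Cd36 was 381 CPM (337–428) with Trem2-/- marrow against 288 CPM (246–336) with Trem2+/+ marrow, a log2 ratio of 0.40 (0.12 to 0.69). Lpl was 912 CPM (844–983) and 778 CPM (707–854), a ratio of 0.23 (0.05 to 0.41). Both were higher in the Trem2-/- library by less than 1.5-fold. Plin2 was 210.0 and 216 CPM (log2 ratio -0.04, -0.39 to 0.31), Pnpla2 71.8 and 50.9 CPM (log2 ratio 0.50, -0.18 to 1.20) and Fabp5 20.3 and 24.6 CPM (log2 ratio -0.27, -1.43 to 0.89). Of the 5 genes measured, 0 were past 1.5-fold either way, against 5.64% of all genes measured that were lower and 10.6% that were higher. The 10 endothelial markers, none of them at 0, summed to 589 and 469 CPM. Their part in the Cd36 and Lpl ratios was not tested. Kupffer-like cells had 0.646 and 0.614 Cd36 UMIs for each UMI of those markers, against 0.0479 and 0.0533 in endothelial-like cells. In the 54 and 74 Kupffer-like cells without a UMI of those markers, Cd36 was 314 and 316 CPM, from 28 and 48 UMIs. Its log2 ratio in those cells was -0.01, and that of Lpl was -0.03. The Kupffer-like values depended on the clustering: with all deposited barcodes clustered again the log2 ratios of Cd36 and Lpl were -0.22 and -0.29, and 2 genes were at least 1.5-fold lower. With each library clustered alone, Lpl was at -1.07 and Plin2 at -0.63. Fabp5, which rests on few UMIs here, was at least 1.5-fold lower in 10 of 14 alternatives, down to -2.98. Of 59 other lipid genes measured, 2 were at least 1.5-fold lower and 4 higher. The scavenger receptor Marco was lower (337 and 636 CPM; log2 ratio -0.91, -1.15 to -0.68), as was the fatty acid synthase gene Fasn (10.8 and 29.9 CPM; log2 ratio -1.46, -2.88 to -0.17), though Fasn turned to 1.10 with all barcodes clustered again and Marco was at -0.11 with the marker lists left out of clustering.

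Ly6C-high monocyte-like cells, the precursors of recruited macrophages, had 7 of 8 genes on the lower side in the Trem2-/- library, by less than 1.5-fold. Fabp5 was 203 CPM (188–219) and 263 CPM (247–278), a log2 ratio of -0.37 (-0.51 to -0.23). Cd36 was 67.6 CPM (59.1–77.0) and 87.6 CPM (78.9–97.0), a ratio of -0.37 (-0.62 to -0.13). Lpl, at 391 and 439 CPM, had a ratio of -0.17 (-0.27 to -0.06), and Pparg, at 19.4 and 26.8 CPM, one of -0.47 (-0.93 to -0.01). For these 4 genes the interval excluded 0. Olr1 (60.8 and 61.1 CPM; log2 ratio -0.01, -0.28 to 0.26), Plin2 (227 and 211 CPM; log2 ratio 0.11, -0.03 to 0.25), Fabp4 (24.7 and 31.01 CPM; log2 ratio -0.33, -0.74 to 0.08) and Pnpla2 (50.6 and 58.2 CPM; log2 ratio -0.20, -0.49 to 0.09) had intervals that include 0. None of the 8 genes measured was past 1.5-fold, against 1.06% of all genes lower and 1.02% higher, and the median log2 ratio was -0.26 beside 0.01 for all genes. The monocyte-like class was sensitive to how cells were clustered: with the lipid genes kept among the clustering genes, 3 genes were at least 1.5-fold lower there, while Fabp5 was at 0.76 with stricter filters and Cd36 at 0.60 with each library clustered alone. Dgat1, under the 20 CPM limit, was 18.5 and 9.47 CPM (log2 ratio 0.96, 0.37 to 1.57). Dgat2, the other enzyme for the last step of triglyceride synthesis, was higher (24.7 and 15.4 CPM; log2 ratio 0.68, 0.20 to 1.18), and the oxidation gene Acads was lower (16.4 and 25.3 CPM; log2 ratio -0.63, -1.12 to -0.15). Dgat2 passed 1.5-fold in 9 and Acads in 7 of 14 alternatives.

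Endothelial-like cells, a cell type that keeps the recipient's genes after a marrow transplant, carried Cd36 and Fabp4 at nearly the same levels in both libraries. Fabp4 was 1389 CPM (1349–1431) with Trem2-/- marrow against 1371 CPM (1318–1425) with Trem2+/+ marrow, a log2 ratio of 0.02 (-0.05 to 0.09). Cd36 was 714 CPM (685–744) with Trem2-/- marrow against 730.0 CPM (692–769.7) with Trem2+/+ marrow, a ratio of -0.03 (-0.13 to 0.07). The libraries overlapped for both genes. Both genes thus passed 1.5-fold in macrophage-like cells and lay near 0 here; the difference between these classes was not tested. Fabp5 was lower, at 281 CPM (263–299.6) and 349 CPM (323–377), with a log2 ratio of -0.31 (-0.46 to -0.17), and Gpihbp1 stood at 2069 and 2230.0 CPM (log2 ratio -0.11, -0.16 to -0.05). In this class the 8 neutrophil markers summed to 53.6 CPM with none at 0 and 237 CPM with 1 at 0, and the 8 monocyte markers to 73.5 and 148 CPM with none at 0. The 12 macrophage markers summed to 3955 and 4046 CPM with none at 0. Macrophage-like cells had more Fabp5 than this class in both libraries, and neutrophil-like and monocyte-like cells had less. The part of RNA from these cells in the Fabp5 ratio was not tested. Plin2 was 93.4 and 104 CPM (log2 ratio -0.15, -0.41 to 0.12). Of the 6 genes measured, 0 were past 1.5-fold, against 1.2% of all genes lower and 1.4% higher. Of 54 other lipid genes measured, 1 was past that limit, the fatty acid desaturase gene Fads1, at 40.2 and 25.0 CPM (log2 ratio 0.69, 0.19 to 1.20).

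In neutrophil-like cells the droplet coat gene Plin2 and the triglyceride enzyme gene Dgat1 were higher in the Trem2-/- library. Plin2 was 126 CPM (106–148) with Trem2-/- marrow against 70.2 CPM (56.4–86.4) with Trem2+/+ marrow, a log2 ratio of 0.84 (0.45 to 1.24). Dgat1 was 168 CPM (145–194) and 109.7 CPM (92.2–129.5), a ratio of 0.62 (0.29 to 0.94). Both were higher in the Trem2-/- library, with intervals that did not overlap. Plin2 passed 1.5-fold in 13 and Dgat1 in 8 of 13 alternatives. Pnpla2 was 174 and 143 CPM (log2 ratio 0.28, -0.02 to 0.58), Olr1 72.6 and 92.3 CPM (log2 ratio -0.35, -0.77 to 0.07) and Fabp5 49.6 and 67.9 CPM (log2 ratio -0.45, -0.96 to 0.05), all with intervals that include 0. So 2 of 5 genes measured were at least 1.5-fold higher and 0 lower, against 3.58% of all genes higher and 5.03% lower. Of 30 other lipid genes measured, 4 were at least 1.5-fold higher and 2 lower. The acyltransferase gene Gpat3 (56.7 and 37.1 CPM; log2 ratio 0.61, 0.05 to 1.19) and Hilpda (59.4 and 39.5 CPM; log2 ratio 0.59, 0.04 to 1.15) were higher, though Hilpda turned to -0.92 with all barcodes clustered again. Endothelial markers summed to 191 and 137 CPM and macrophage markers to 1029 and 1087 CPM in this class, none of either list at 0. Their part in the result was not tested.

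The class held 2 clusters with different storage genes. Cluster 4 (357 and 440 cells), led by Retnlg and Mmp9, had more Dgat1 (224 and 143 CPM) and Pnpla2 (205 and 173 CPM) than cluster 13 (169 and 260 cells), led by Acod1 and Csf1, which had 56.1 and 57.0 CPM of Dgat1 and 109.5 and 95.7 CPM of Pnpla2. Cluster 13 had more Olr1, 112 and 147 CPM, than cluster 4, 53.0 and 58.0 CPM. Plin2 was higher in the Trem2-/- library in both clusters, at 102 and 43.8 CPM in cluster 4 (log2 ratio 1.22, 0.62 to 1.85) and 174 and 112 CPM in cluster 13 (log2 ratio 0.63, 0.09 to 1.18). Dgat1 was higher in cluster 4 (log2 ratio 0.65, 0.29 to 1.01) and had a ratio of -0.02 (-0.91 to 0.84) in cluster 13. The difference between the clusters was not tested. In cluster 4, 2 of 5 genes measured were at least 1.5-fold higher and 1, Fabp5, was lower (log2 ratio -0.59, -1.19 to -0.01), against 5.98% of all genes higher and 7.95% lower. In cluster 13, 1 of 5 was higher and 0 lower, against 9.79% and 14.4%.

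**Figure D4:**
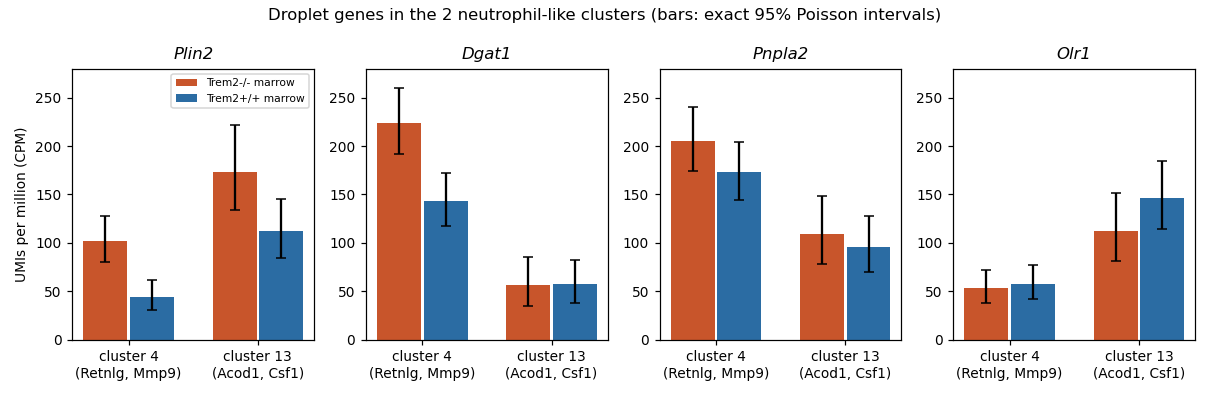
Levels (vertical axis, CPM from 0) of Plin2, Dgat1, Pnpla2 and Olr1 in the 2 neutrophil-like clusters of each library, with exact 95% Poisson intervals as bars. Plin2 is higher in the Trem2-/- library in both clusters, Dgat1 is higher in cluster 4, and cluster 13 has less Dgat1 and more Olr1 than cluster 4 in both libraries.

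Dendritic and lymphoid classes showed few differences. In cDC1-like cells Cd36 was 152 and 133 CPM (log2 ratio 0.19, -0.05 to 0.44), Plin2 149 and 139 CPM (log2 ratio 0.09, -0.15 to 0.33) and Pnpla2 66.0 and 69.4 CPM (log2 ratio -0.07, -0.42 to 0.28), and in type 2 dendritic (cDC2-like) cells Fabp5 was 81.4 and 102 CPM (log2 ratio -0.33, -0.74 to 0.08). None of 4 genes measured in cDC1-like cells or 3 in cDC2-like cells passed 1.5-fold; the background was 1.41% lower and 1.6% higher in the first class and 3.55% and 5.13% in the second. In B cell-like cells Pnpla2, the single gene measured, was 71.5 CPM (58.6–86.3) and 45.0 CPM (34.5–57.6), with a log2 ratio of 0.67 (0.20 to 1.14), past 1.5-fold, against 3.97% of all genes higher and 1.96% lower. The 10 endothelial markers, none at 0, summed to 169 and 71.8 CPM in B cell-like cells, and their part in the Pnpla2 ratio was not tested. Pnpla2 was itself lower in endothelial-like than in B cell-like cells of the Trem2-/- library. T cell-like cells had Pnpla2 at 62.2 and 48.2 CPM (log2 ratio 0.37, 0.03 to 0.72), Dgat1 at 36.0 and 28.8 CPM (log2 ratio 0.32, -0.13 to 0.78) and Fabp5 at 26.2 and 21.1 CPM (log2 ratio 0.31, -0.21 to 0.85), and NK/ILC1-like cells had Dgat1 at 98.97 and 96.1 CPM (log2 ratio 0.04, -0.31 to 0.39). Of these 3 and of the 2 genes measured in NK/ILC1-like cells, none passed 1.5-fold; the background was 0.942% lower and 6.16% higher in T cell-like and 2.2% and 4.31% in NK/ILC1-like cells. In T cell-like cells the median log2 ratio of all genes was itself 0.12. Among the other lipid genes past 1.5-fold were Got2 in B cell-like cells (0.87, turning to -0.66 when clusters were weighted equally), the oxidation enzyme gene Hadh (0.85) and the cholesterol-ester enzyme gene Soat1 (0.82) in NK/ILC1-like cells, and Hilpda (0.90), Dbi (0.63) and Lpin1 (-0.63) in T cell-like cells. Dbi passed in 5 of 13 alternatives. In cDC2-like cells 4 passed, among them the lipoprotein receptor gene Scarb1 (0.71) and Hilpda (0.66). In cDC1-like cells G0s2 was 11.1 and 42.8 CPM (log2 ratio -1.95, -2.67 to -1.28) while neutrophil markers summed to 117 and 773 CPM; without the 5% of barcodes with the highest doublet scores its ratio was 1.84.

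Summed over all kept cells, Fabp5, Lpl and Plin2 were lower in the Trem2-/- library, and Fabp4 was higher. Fabp5 was 188 CPM (183–194) and 567 CPM (558–576), with a log2 ratio of -1.59 (-1.64 to -1.54), Lpl 156 and 415 CPM (log2 ratio -1.41, -1.47 to -1.36) and Plin2 116 and 188 CPM (log2 ratio -0.70, -0.77 to -0.64), so that 3 of 8 genes measured were at least 1.5-fold lower and 0 higher, against 1.86% and 4.62% of all genes. Cd36 was 168 and 247 CPM (log2 ratio -0.56, -0.61 to -0.50) and Olr1 16.2 and 24.1 CPM (log2 ratio -0.57, -0.75 to -0.39), both just inside 1.5-fold. With median-ratio scaling these 2 genes also passed, which made 5. Fabp4 went the other way, at 206 and 167 CPM (log2 ratio 0.30, 0.25 to 0.36), as did Dgat1, at 38.9 and 26.5 CPM (log2 ratio 0.55, 0.41 to 0.70). Pnpla2 was 62.4 and 60.6 CPM (log2 ratio 0.04, -0.06 to 0.14). In such a sum, fewer cells of a type and less RNA per cell cannot be told apart, so class levels and class shares of UMIs were exchanged between the libraries. With the class shares held at those of the Trem2+/+ library, the log2 ratio of Fabp4 turned to -0.36, while exchanging the shares alone gave 0.37. For Fabp5 the same values were -0.90 and -0.92, for Lpl -0.65 and -0.94, for Cd36 -0.62 and -0.32 and for Plin2 -0.19 and -0.57. Pparg was under the 20 CPM limit over all kept cells, at 10.2 and 16.7 CPM (log2 ratio -0.71). Its values were -0.15 and -0.60. The split depends on the order of exchange: with the shares held at those of the Trem2-/- library, the value for levels was -0.07 for Fabp4, -0.24 for Cd36, -0.67 for Fabp5, -0.47 for Lpl, -0.13 for Plin2 and -0.10 for Pparg. For Plin2, Pparg and Lpl the value for shares (at Trem2+/+ levels) was larger in size than both values for levels. For Fabp5 and Fabp4 it was larger too, but only narrowly so beside the value for levels at Trem2+/+ shares. These were -0.92 against -0.90 for Fabp5 and 0.37 against -0.36 for Fabp4. For Cd36 the value for shares lay between the values for levels.

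The classes that supplied each transcript differed as well. Endothelial-like cells gave 87.1% of Fabp4 UMIs in the Trem2-/- library and 57.6% in the Trem2+/+ library, and macrophage-like cells 2.07% and 31.8%. For Cd36, endothelial-like cells gave 55.0% and 20.7% and macrophage-like cells 12.6% and 60.9%. Macrophage-like cells gave 33.6% and 75.9% of Fabp5, 34.9% and 73.3% of Lpl and 23.7% and 58.2% of Plin2. These cells made up 4.79% (4.26 to 5.36) and 17.3% (16.4 to 18.2) of kept cells; genes that define the class also differ between the libraries, so its size is given here as a denominator only.

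**Figure D5:**
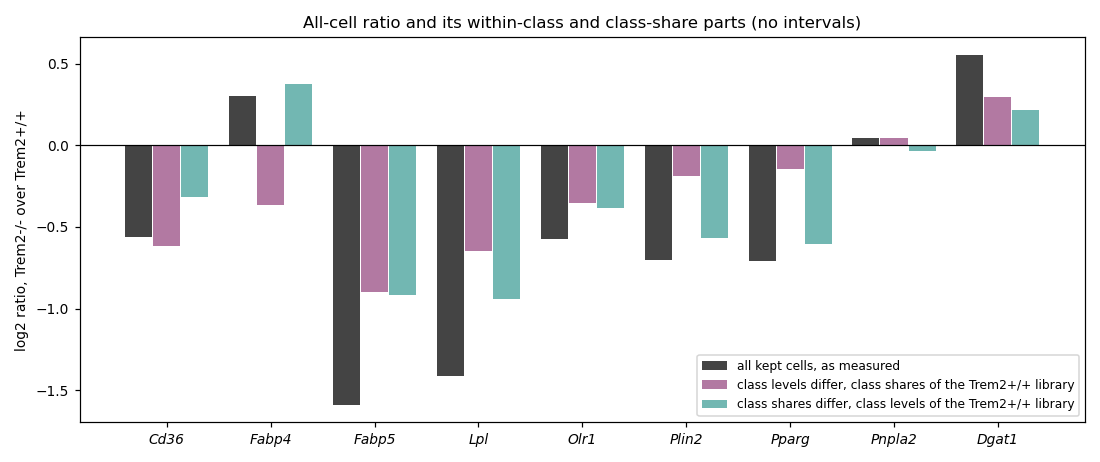
Log2 ratio of the Trem2-/- over the Trem2+/+ library (vertical axis) over all kept cells for each gene: as measured, with only class levels differing (at Trem2+/+ shares), and with only class shares of UMIs differing (at Trem2+/+ levels). No intervals are drawn. Fabp4 shows bars of opposite sign. For Plin2, Pparg and Lpl the bar for shares is clearly longer than the bar for levels. For Fabp5, Olr1 and Fabp4 it is slightly longer, and for Cd36, Pnpla2 and Dgat1 shorter.

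The likeness of each gene to others was measured as Pearson's r of log2(CPM + 10) over 20 points, the 10 classes in the 2 libraries, among 5808 genes. Points of 1 library share its depth and free RNA, so r is a description. Among the genes most like Lpl were Tnfsf13 (r = 0.97) and Ccl24 (0.97), and Pparg was most like Prdx1 (r = 0.97), Anxa3 (0.94) and Renbp (0.93). Cd36 was most like Lima1 (r = 0.96), Snx24 (0.95) and Vps35 (0.93), and Fabp4 most like Lhfpl2 (r = 0.98), Akr1b8 (0.96) and Emilin1 (0.96). The nearest genes to Fabp5 were Cd93 (r = 0.86), Gstm1 (0.83) and Adam15 (0.83), and to Olr1 Hp (r = 0.97), Clec4e (0.96) and Slc7a11 (0.95). Plin2 came closest to Vps26a (r = 0.95), Hexa (0.93) and Rragc (0.92), Pnpla2 to Nudt4 (r = 0.89), Wwp2 (0.88) and Mxd1 (0.88) and Dgat1 to Gnai3 (r = 0.94), Il18rap (0.93) and Slc2a3 (0.93). Within the 9 genes, Lpl and Pparg were the most alike pair (r = 0.91), followed by Plin2 and Pparg (0.80), Fabp5 and Pparg (0.78) and the enzymes Pnpla2 and Dgat1 (0.77). Cd36 and Dgat1 had the lowest value (-0.51).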

How the data were processed

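Single-cell counts of liver CD45+ cells were analysed from 1 library per group, each pooled from 4 mice. The authors deposited UMI counts per gene and barcode, made with Cell Ranger 5.0.1 on mm10 per the file headers and the submitters' processing notes, as filtered matrices. Barcodes were kept from 200 genes upward and up to a mitochondrial share of 10%. Cells were clustered with scanpy 1.11.5 and leidenalg 0.10.2 (2000 variable genes without the 9 genes, the lipid lists and Trem2, 30 components, 15 neighbours, resolution 1). Clusters were named "X-like" from marker lists. Scrublet marked 4 and 2 barcodes, under 0.5% of cells. These were left out, and no other doublets were removed outside the alternatives. Raw counts were summed per library and class, with exact Poisson intervals for CPM and exact conditional binomial intervals for ratios (scipy 1.17.1). The ratio rule was also run on simulated Poisson counts. These hold no variation between mice, libraries or clusterings, so the run cannot show how the rule fares under such variation. A gene was called when its mean was at least 20 CPM and its ratio at least 1.5-fold, and no p-value was computed. Thinning used 1000 UMIs per cell. The other lipid genes named are those past 1.5-fold whose interval excludes 0, at most 5 each way in macrophage-like and 2 each way in other classes, plus set partner genes such as Gpihbp1 and Hilpda. The genes, lists and rules were chosen with earlier results of these data known. 1 item of the likeness comparison is not reported here. Alternatives changed the filters, clustering, scaling, weighting, depth and doublet treatment.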

Additional observations from a re-analysis of the deposited data

Results flagged for a closer look

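The fatty acid receptor gene Cd36 lay on opposite sides of 0 in the macrophage classes of the liver under the clustering used. Its log2 ratio of the Trem2-/- over the Trem2+/+ library was -1.19 in macrophage-like cells and 0.40 in Kupffer-like cells. The lipase gene Lpl had -0.84 in macrophage-like and 0.23 in Kupffer-like cells. The Kupffer-like sign turned in 3 of 14 alternatives for each gene. With all barcodes clustered again it was -0.22 for Cd36 and -0.29 for Lpl, with each library clustered alone -0.03 and -1.07, and in cells without a UMI of the endothelial markers -0.01 and -0.03. The droplet coat gene Plin2 was at 0.84 in neutrophil-like cells and -0.36 in macrophage-like cells. In each case 1 class passed 1.5-fold and the other lay on the opposite side of 0 with an interval that excluded it. The differences between classes were not tested, since each group had 1 library.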

How the results depend on the processing

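No paired analysis was possible because each group was a single library. In macrophage-like cells 4 or 5 genes were at least 1.5-fold lower under every alternative that gave a value; with each library clustered alone the Trem2-/- library had no macrophage-like class. There Cd36, Fabp4, Fabp5 and Lpl passed 1.5-fold in all 14 alternatives, and Olr1 in 11 of 14, with 0.29 from all deposited barcodes and 0.22 at Leiden resolution 0.5. The size of the Fabp4 ratio varied, from -2.16 at resolution 0.5 to -1.01 after thinning. In Kupffer-like cells the count of lower genes went from 0 to 2 at resolutions 0.5 and 2, with all barcodes, with marker lists left out of clustering and with means over cells. It was 1 in cells without endothelial-marker UMIs, after thinning and with lipid genes kept among the clustering genes, and 3 with each library clustered alone. In monocyte-like cells the count went from 0 to 1 at resolution 0.5, after thinning and without the 5% highest Scrublet scores, to 2 with stricter filters, and to 3 with marker lists left out or lipid genes kept. Over all kept cells it went from 3 to 5 with median-ratio scaling. In this sum Cd36 passed 1.5-fold in 3 of 12 alternatives and Olr1 in 2, while Fabp5, Lpl and Plin2 passed in all 12. Endothelial-like cells had 0 throughout. Among other lipid genes, ratios reversed for Got2 in B cell-like cells (-0.66, clusters weighted equally), Hilpda in neutrophil-like cells (-0.92 with all barcodes, -0.74 with lipid genes kept), Fasn in Kupffer-like cells (1.10, all barcodes) and G0s2 in cDC1-like cells (1.84, without the 5% highest Scrublet scores); the cause was not tested. Of 692 ratios of the 9 genes under alternatives, 595 lay inside the counting interval of the value given; among genes past 1.5-fold, 2 changed sign (both Olr1), while smaller ratios changed sign more often, as in Kupffer-like cells for Cd36 and Lpl (3 of 14 each) and in monocyte-like cells for Fabp5 (4 of 14). Plin2 in neutrophil-like cells stayed past 1.5-fold in 13 of 13 and Dgat1 in 8 of 13. Median-ratio scaling shifted the median of all genes by over 0.1 only in T cell-like cells, by 0.12. Ratios that rest on few UMIs, such as Fabp5 in Kupffer-like cells, have wide intervals.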

Other observations

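Small and unnamed cell groups also held the 9 genes. Mature dendritic-like cells, led by Fscn1 and Ccr7 (90 and 96 cells), had Fabp5, the fatty acid carrier gene, at 1204 CPM (1124 to 1289) with Trem2-/- marrow and 1613 CPM (1518 to 1713) with Trem2+/+ marrow. Cholangiocyte-like cells of the bile ducts (14 and 25 cells) had Fabp5 at 523 and 387 CPM. Stellate or fibroblast-like cells (13 and 14 cells) had Fabp4 at 1003 and 794 CPM, and Lpl at 98.4 CPM from 5 UMIs and 595 CPM from 54 UMIs. Cycling-like cells (93 and 157 cells) had Lpl at 32.5 and 113 CPM.

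The unnamed cluster 8 (257 and 307 cells), led by Gm26917 and Neat1, had Fabp5 at 49.5 CPM (30.3 to 76.5) and 208 CPM (167 to 257) and Plin2 at 260.1 and 366 CPM. The unnamed cluster 9 (347 and 178 cells), led by the T and NK cell genes Fasl and Klrc2 among others, had Dgat1 at 241 and 239.6 CPM. Both values were higher than that of every class compared, but counting intervals were not set against each other. Its cells were shallow, with medians of 777 and 708.5 UMIs. Their median mitochondrial share was 5.23% and 5.94%, against 1.56% and 1.41% over all kept cells. The order is therefore uncertain. In the unnamed cluster 25 (52 and 34 cells), which held Kupffer and endothelial markers together, Cd36 was 495 and 569 CPM and Fabp4 531 and 462 CPM.

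In plasmacytoid dendritic-like cells Fabp4 was at 339 CPM in the Trem2-/- library and 8.14 CPM in the Trem2+/+ library. Of the 79 UMIs behind the first value, 63 (79.7%) came from 1 cell of 42, and 2 cells held all of them.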
